A study of Triticum aestivum with 12 samples.

Results

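The histone genes wcH2A-2 (LOC732712) and wcH2A-3 (LOC732713) were each followed through 1 probe set of a wheat expression array, which makes 2 of the 61179 probe sets tested. wcH2A-2 was read by Ta.29542.1.S1_x_at and wcH2A-3 by Ta.27192.1.S1_at. Both were chosen as histone transcripts to be followed under water stress, with earlier results of the same arrays in view, so their differences between stressed and well-watered roots are given as a description and carry no test. Differences between genotypes were not used in the choice and are tested below.

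The study profiled seedling roots at 18 days of age, raised in sand, on 12 arrays that each held 1 sample. The plants were of 3 genotypes, which the labels call Pavon76, Pavon-TL and Null Control, and each was grown under 2 regimes, well water (watered daily) and water stress (watered every second day), with 2 arrays in each of the 6 groups. Pavon76 is a bread wheat cultivar, and Pavon-TL, by what is known of it beyond the labels, derives from Pavon76 by translocation of a chromosome segment from a wild relative of wheat, while the labels do not describe Null Control. Since no label states that both arrays of a group hold different plants, the errors and p-values measure the spread between these arrays, which may be technical.

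Histone H2A pairs with H2B, and these dimers join H3 and H4 in the protein core around which DNA is wound. Cells make most of their core histones while they copy their DNA, so in a root the transcripts of replication-linked histones are most abundant in the dividing cells of the meristem behind the root tip. Plant histone messages, unlike most of those in animals, carry a poly(A) tail and are therefore picked up by labelling from oligo(dT). In whole roots, fewer dividing cells and less histone RNA per cell cannot be told apart.

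Bread wheat is hexaploid, and the array cannot tell the A, B and D copies of a gene apart with certainty. The suffix _x_at of the wcH2A-2 probe set marks probes that may also bind related transcripts, so its values are uncertain as those of a single gene. The wcH2A-3 probe set, with the plain suffix _at, was designed against 1 transcript. In RefSeq's annotation of bread wheat (IWGSC CS RefSeq v2.1), both genes lie on the same chromosome with 7 annotated genes between them, of which 3 code for protein.

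Values were RMA values on the log2 scale, a probe set's brightness after normalization between arrays, so that a difference of 1 is a doubling of signal. Array medians lay between 5.89 and 5.93. Arrays of the same replicate number but of different groups correlated at 0.991 to 0.996, higher than the 2 arrays of any group did with each other (0.980 to 0.987), so the replicate number moved the whole profile more than water or genotype did. The only gene matched for the root list was TaDMAS1, an enzyme of the phytosiderophore pathway by which grasses take up iron. It followed the number as well: the mean of its 3 probe sets was 10.2 to 11.7 on arrays numbered 1 and 8.68 to 9.42 on arrays numbered 2. The leaf list (31 probe sets, 28 of them for rbcL) averaged 4.62 to 4.76 over all arrays and the grain list (16 probe sets) 4.67 to 4.85, with 6 and 3 probe sets above the median level of all probe sets.

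wcH2A-2 was lower in stressed than in well-watered roots in the mean of each genotype, whereas wcH2A-3 stood at nearly the same value in all 6 groups. Averaged over genotypes, the stressed value of wcH2A-2 was 0.34 lower on the log2 scale, a linear ratio of 0.790. The SE was 0.10, or 0.08 with the replicate number as a block. That of wcH2A-3 was 0.04 higher (SE 0.08), a linear ratio of 1.03.

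The well-watered Pavon76 roots gave 9.46 and 9.52 for wcH2A-2, and the stressed ones 9.19 and 9.54. Pavon-TL gave 9.54 and 9.56 with daily water and 9.14 and 9.23 under stress. Null Control gave 9.47 and 10.03 with daily water and 9.21 and 9.24 under stress. Stressed and well-watered arrays stood apart without overlap in Pavon-TL and Null Control and overlapped in Pavon76, where the second stressed array was the highest of the 4. Both stressed arrays lay below both well-watered arrays in 13.5% of all probe sets for Pavon-TL, 15.8% for Null Control and 10.9% for Pavon76. All 6 stressed arrays lay below all 6 well-watered ones in 0.145% of probe sets, and wcH2A-2 was not among these because of that second stressed Pavon76 array.

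The stress difference of wcH2A-2 was -0.53 in Null Control, -0.36 in Pavon-TL and -0.13 in Pavon76. Each had an SE of 0.18, or 0.14 with the replicate block. As linear ratios these are 0.693, 0.777 and 0.915. The gap between Null Control and Pavon76 was -0.40 and that between Pavon-TL and Pavon76 was -0.24, both of them resting on the same Pavon76 arrays. Each gap had an SE of 0.26, or 0.20 with the block. Of the 61179 probe sets, 15.7% had a lower stressed mean in all 3 genotypes, and 0.848% had an average difference as low as that of wcH2A-2 or lower. With limma and an adjusted p below 0.05, 0.0% of all probe sets were called for stress in any genotype or on average; with the replicate number as a block the shares were 0.00163% for Null Control and 0.00817% for the average. At an unadjusted p below 0.05 the shares were 4.28% for the average over genotypes, 3.42% for Null Control, 2.84% for Pavon76 and 2.5% for Pavon-TL.

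Single arrays set how large the difference in wcH2A-2 was within a genotype. The second well-watered Null Control array, at 10.03, was the highest of the 6 well-watered arrays, and without it the Null Control difference was -0.25 and the average -0.25. Without the second stressed Pavon76 array, at 9.54 the highest of the 6 stressed arrays, the Pavon76 difference was -0.30 and the average -0.40. Leaving out the first stressed Pavon76 array instead turned the Pavon76 difference to 0.05. With both high arrays removed, a setting added once the values had been seen, the average difference was -0.31, with -0.30 for Pavon76, -0.36 for Pavon-TL and -0.25 for Null Control.

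Setting arrays of the same number side by side, the stressed value of wcH2A-2 was below the well-watered one in 5 of 6 pairs. Null Control gave -0.27 and -0.79, Pavon-TL gave -0.40 and -0.33, and Pavon76 gave -0.28 and 0.02. A count of 5 or more of 6 was reached by 14.1% of all probe sets. The array numbered 2 was the higher one in all 6 groups, by 0.02 to 0.55, with a mean of 0.18.

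**Figure D1:**
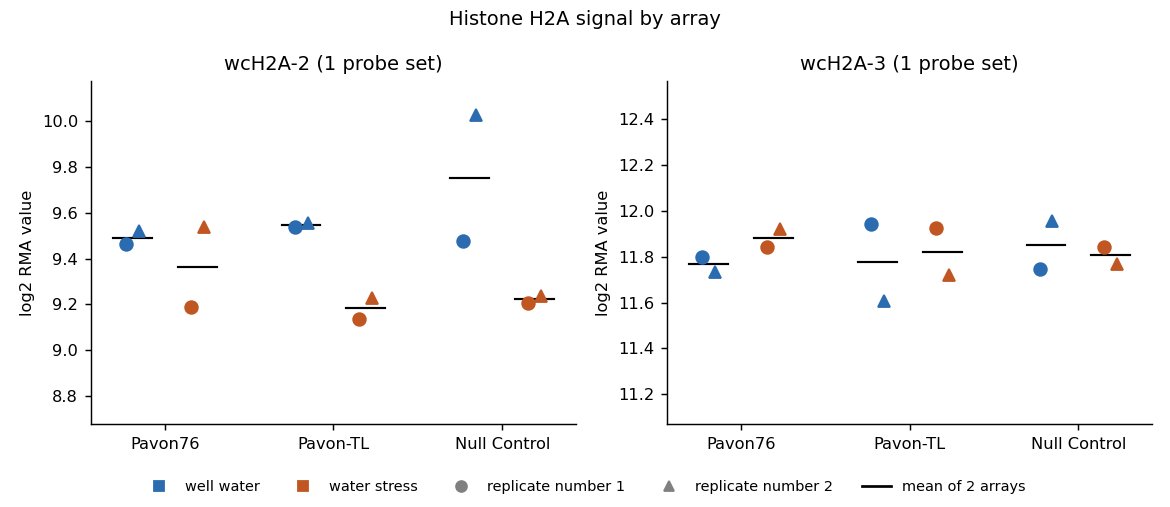
RMA value on the log2 scale (vertical axis) of wcH2A-2 and wcH2A-3 on each of the 12 arrays, by genotype and water regime (horizontal axis), with a point per array and a bar at each group mean. Well-watered Null Control holds the highest wcH2A-2 value (10.03), and the wcH2A-3 points of all groups lie between 11.61 and 11.96.

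The wcH2A-3 values were 11.80 and 11.74 in well-watered Pavon76 and 11.84 and 11.92 under stress. Pavon-TL gave 11.94 and 11.61 with daily water and 11.92 and 11.72 under stress. Null Control gave 11.75 and 11.96 with daily water and 11.84 and 11.77 under stress. Both stressed arrays were above both well-watered ones in Pavon76, and the groups overlapped in Pavon-TL and Null Control. How many of all probe sets had this order in Pavon76 was not counted, and the reverse order held for 10.9% of them. For Pavon76 the stress difference was 0.12, for Pavon-TL 0.05 and for Null Control -0.05, each with an SE of 0.14. The difference was negative in 2 of 6 same-number pairs and positive in 4, and 69.8% of all probe sets had an average stress difference at least as large in size as that of wcH2A-3.

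From the highest group mean to the lowest, wcH2A-2 ran from well-watered Null Control (9.75 ± 0.39, SD, n = 2) over well-watered Pavon-TL (9.55 ± 0.01) and well-watered Pavon76 (9.49 ± 0.04) to stressed Pavon76 (9.36 ± 0.25), stressed Null Control (9.22 ± 0.02) and stressed Pavon-TL (9.18 ± 0.07). All 3 well-watered means thus stood above all 3 stressed means. Neighbours in this order overlapped in their arrays, except well-watered Pavon-TL and well-watered Pavon76, whose means were 0.06 apart. The order for wcH2A-3 was stressed Pavon76 (11.88 ± 0.05), well-watered Null Control (11.85 ± 0.15), stressed Pavon-TL (11.82 ± 0.14), stressed Null Control (11.81 ± 0.05), well-watered Pavon-TL (11.78 ± 0.24) and well-watered Pavon76 (11.77 ± 0.05). Every pair of neighbours in the wcH2A-3 order overlapped.

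A further probe set that the annotation gives to wcH2A-3, Ta.27192.1.S1_s_at, did not follow the first. Its suffix marks probes shared by several transcripts, and its values ran from 7.18 to 7.75. Its average stress difference was -0.10 (SE 0.12), made up of -0.18 for Pavon76, -0.16 for Pavon-TL and 0.03 for Null Control. Over the 12 arrays, after the mean of the arrays with the same number was taken off, the values of the pair of wcH2A-3 probe sets correlated at -0.32. The account of wcH2A-3 therefore holds for the probe set Ta.27192.1.S1_at and not for every probe set under that name.

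No difference between genotypes in either H2A gene was larger than the spread between arrays by the test. Averaged over the water regimes, wcH2A-2 was at 9.36 ± 0.21 (SD, n = 4) in Pavon-TL, 9.43 ± 0.16 in Pavon76 and 9.49 ± 0.38 in Null Control. Pavon-TL minus the mean of both controls was -0.09 (SE 0.11, 95% interval -0.35 to 0.16, limma adjusted p = 1.00). For wcH2A-3 the means were 11.80 ± 0.16 in Pavon-TL, 11.83 ± 0.08 in Pavon76 and 11.83 ± 0.09 in Null Control. Its difference between Pavon-TL and the controls was -0.03 (SE 0.09, 95% interval -0.22 to 0.17, limma adjusted p = 1.00). Of all probe sets, 0.199% were called in this comparison, and 0.634% with the replicate number as a block.

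Against Pavon76 alone, Pavon-TL differed by -0.06 (95% interval -0.36 to 0.23) in wcH2A-2 and by -0.03 (-0.25 to 0.20) in wcH2A-3. Against Null Control alone, it differed by -0.12 (-0.42 to 0.17) in wcH2A-2 and by -0.03 (-0.26 to 0.20) in wcH2A-3. Null Control minus Pavon76 was 0.06 (-0.23 to 0.35) in wcH2A-2 and 0.00 (-0.22 to 0.23) in wcH2A-3. In limma, 0 of these 8 tests passed after adjustment over all probe sets, 0 of 8 had an unadjusted p below 0.05 (the smallest was 0.367), and 0 of 8 passed after adjustment with the replicate block. The shares of all probe sets called were 0.168% for Pavon-TL against Pavon76, 0.152% for Pavon-TL against Null Control and 0.0049% for Null Control against Pavon76, and with the block 0.499%, 0.575% and 0.0147%. An unadjusted p below 0.05 was reached by 3.96% of all probe sets for Pavon-TL against the controls, 4.07% against Pavon76 and 3.11% against Null Control, and by 2.04% for Null Control against Pavon76. The intervals allow a genotype difference in wcH2A-2 of up to 0.42 in size, larger than its average stress difference. With the block, the interval for Pavon-TL against Null Control was -0.35 to 0.10, which still reached that size. Similar levels in the 3 genotypes were therefore not shown. With both high wcH2A-2 arrays removed, Pavon-TL was 0.02 above Pavon76 and 0.02 above Null Control, again without a call.

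**Figure D2:**
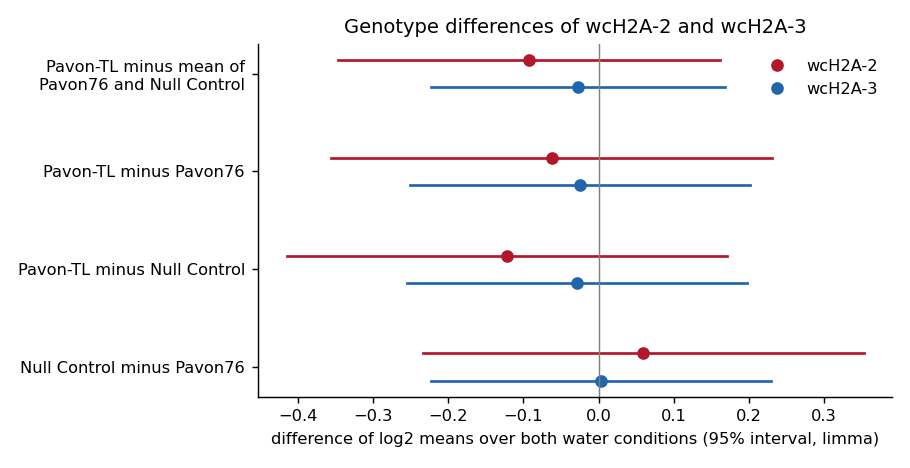
Difference between genotypes on the log2 scale, averaged over the water regimes, for wcH2A-2 and wcH2A-3, with 95% intervals from limma. All 8 intervals include 0.

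The other annotated histones on the array were wcH2A-9, a further H2A gene with 6 probe sets, and the H2B genes wcH2B-6 with 2 and wcH2B-8 with 7. With the second wcH2A-3 probe set these make 16 histone probe sets beside the pair described above. The match on gene symbols and synonyms found no H1, H3 or H4 gene. Several of these probe sets share a transcript cluster and may bind the same messages, so they are not independent of each other.

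In the group means these 16 probe sets were mostly higher under stress in Pavon76 and mostly lower in both other genotypes. In Pavon76 and Null Control the split came mainly from the arrays numbered 2, whereas in Pavon-TL both numbers were mostly lower. In Pavon76, 15 of 16 stress differences were positive, with a median of 0.12 against 0.01 over all probe sets. In Pavon-TL, 13 of 16 were negative with a median of -0.13, and in Null Control 15 of 16 were negative with a median of -0.18, where the medians of all probe sets were -0.01 and -0.01. Without the second well-watered Pavon76 array, 8 of 16 were positive and 8 negative in Pavon76 (median -0.00). Leaving out each of the other Pavon76 arrays in turn gave 13 to 15 positive. In Pavon-TL, 9 of 16 were positive without the first well-watered array (median 0.02), and 8 without the second stressed array (median 0.03). Without the second well-watered array 0 were positive (median -0.25), and without the first stressed array 1 was (median -0.24). In Null Control, 13 of 16 were negative without the second well-watered array (median -0.09), and 9 without the second stressed array (median -0.09). Without the first well-watered array 16 were negative (median -0.29), and without the first stressed array 15 (median -0.32). Leaving out 1 array unbalances the replicate numbers, so those counts mix the array with the step between the numbers. The arrays numbered 1 alone gave 9 positive of 16 for Pavon76, 9 for Null Control and 5 for Pavon-TL. Those numbered 2 gave 15, 1 and 4. The medians for numbers 1 and 2 were -0.15 and -0.08 in Pavon-TL, 0.01 and 0.25 in Pavon76, and 0.02 and -0.43 in Null Control. In limma, 0 of the 16 passed after adjustment in any genotype or on average. At an unadjusted p below 0.05 the counts were 1 in Null Control (2 with the replicate block) and 0 in Pavon76, in Pavon-TL and on average.

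In Pavon76 the mean difference of wcH2A-2 (-0.13) had the opposite sign to most of these. That of wcH2A-3 had the sign of most of them in Pavon76 (0.12) and in Null Control (-0.05, or 0.06 without the second well-watered array) and the opposite sign in Pavon-TL (0.05). The 7 wcH2B-8 probe sets were all positive in Pavon76 (0.10 to 0.26) and all negative in Null Control (-0.38 to -0.11). All 6 wcH2A-9 probe sets were positive in Pavon76 and negative in Null Control, with 2 positive and 4 negative in Pavon-TL. Both wcH2B-6 probe sets were positive in Pavon76 and negative in Pavon-TL and Null Control. On average over genotypes the 7 H2A probe sets other than the pair described lay between -0.10 and 0.07, with a median of -0.08, and the 9 H2B probe sets between -0.19 and 0.06. The average of -0.34 for wcH2A-2 lay outside both ranges, and that of 0.04 for wcH2A-3 lay inside both. As wcH2A-2 was chosen with this contrast in view, its place outside the ranges is a description.

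**Figure D3:**
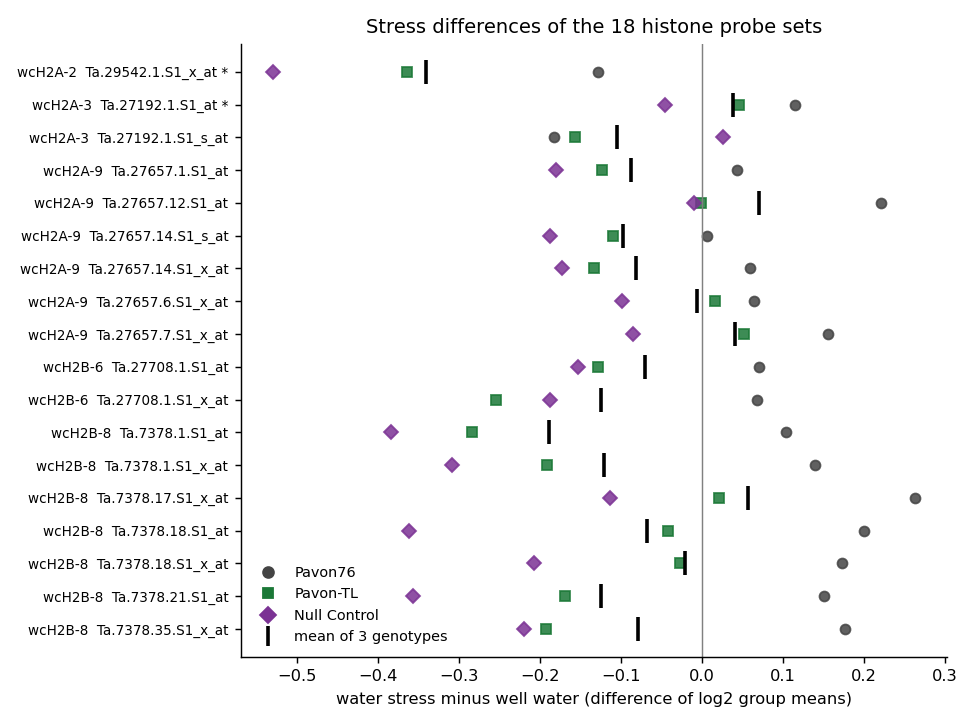
Water stress minus well water on the log2 scale for each of the 18 annotated histone probe sets, by genotype, with the pair described in the text marked by an asterisk. wcH2A-2 is negative in all 3 genotypes, and 15 of the 16 other probe sets are positive in Pavon76 (8 without the second well-watered Pavon76 array).

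For Pavon-TL against the controls, 0.199% of all probe sets were called. Between genotypes, 1 of the 18 histone probe sets was called. It was the wcH2B-8 probe set Ta.7378.35.S1_x_at, lower by 0.89 in Pavon-TL than in the controls (limma adjusted p = 0.0097), and with both high wcH2A-2 arrays removed the difference was -0.83 (limma adjusted p = 0.101), or -0.78 in the blocked fit (limma adjusted p = 0.0038). The other wcH2B-8 probe sets lay between -0.21 and -0.04 in this comparison and were not called. Of the 16 probe sets beside the pair described, 2 were higher and 14 lower in Pavon-TL than in the controls. The pair's own values of -0.09 and -0.03 lay within the range of the 15 other than the called one.

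In well-watered Null Control a single array stood apart across the histones. Compared with the other 5 arrays numbered 2, the second well-watered Null Control array was the highest for 17 of 18 histone probe sets, and for 15 of the 16 beside wcH2A-2 and wcH2A-3. Over all probe sets it was the highest of its number in 18.4%. Its median deviation from the mean of the arrays of its number was 0.27 over the 16 histones. The second stressed Pavon76 array had a median deviation of 0.16, and the second stressed Pavon-TL array, lowest of its number for 10 of 18 histone probe sets, one of -0.15. Among arrays numbered 1 these medians lay between -0.06 and 0.09. The first well-watered Pavon-TL array was the highest of its number for 9 of 18 histone probe sets, against 19.3% of all probe sets. The first stressed Pavon-TL array was the lowest for 8 of 18. The share of all probe sets that were lowest on an array was not counted. The median deviation over all probe sets lay between -0.01 and 0.01 on every array.

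**Figure D4:**
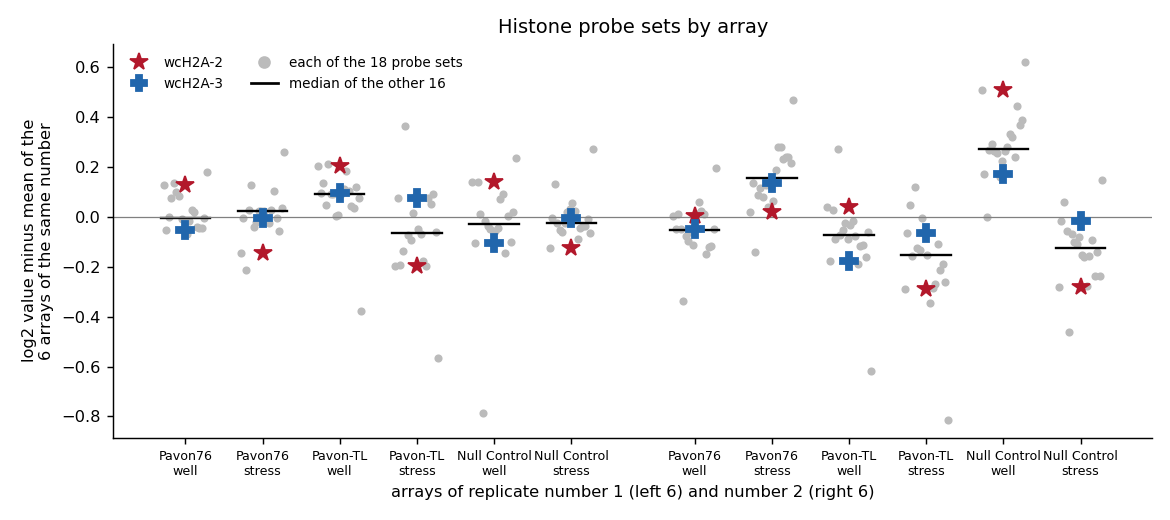
Deviation on the log2 scale of each histone probe set from the mean of the 6 arrays with the same replicate number, for each of the 12 arrays; gray points are the 18 histone probe sets, coloured points wcH2A-2 and wcH2A-3, and the black line the median of the other 16. The second well-watered Null Control array stands above the rest, with a median of 0.27.

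Other measures were compared between the water regimes as well. The 3 probe sets of TaDMAS1 were lower under stress in the mean of each genotype. Their median average difference was -0.40, with 0 called by limma (0 at an unadjusted p below 0.05). The mean over these probe sets was 8.68 to 11.7 on well-watered and 8.70 to 10.9 on stressed arrays. The spiked hybridization controls, added at fixed amounts, read 9.88 to 10.33 on well-watered arrays (median 10.08) and 10.04 to 10.63 on stressed ones (median 10.53). The poly-A controls read 7.81 to 8.39 on well-watered and 7.78 to 8.30 on stressed arrays. In the same order, the 3′ minus 5′ difference of the GAPDH control probe sets was -2.88 to -2.28 and -2.73 to -2.47. That of actin was -2.30 to -1.42 and -2.23 to -1.71, and that of ef1a -0.28 to 0.46 and 0.10 to 0.46. Over all genotypes these ranges overlapped. Within Pavon-TL the hybridization controls stood apart, at 10.30 to 10.33 with daily water and 10.46 to 10.55 under stress. Null Control did likewise, at 9.88 to 10.04 and 10.52 to 10.63, and Pavon76 overlapped. GAPDH differences stood apart in the same genotypes, lower under stress. Those of ef1a also stood apart there, lower under stress in Pavon-TL and higher in Null Control. The remaining ranges overlapped within each genotype. The 3′ sets of GAPDH and actin read below their 5′ sets, so these differences are not taken as a measure of RNA length. The part of these measures in the difference of wcH2A-2 was not tested. Of other genes tied to cell division or chromatin, the match on gene symbols and synonyms found no replication or cell cycle gene. The 10 tubulin probe sets (subunits of microtubules, which also form the spindle) had a median average stress difference of -0.10, with 9 of 10 negative and 0 called. The 4 tubulin genes with the highest levels were at 0.03 (tubb1), -0.06 (TUBA), -0.01 (tubb2) and -0.13 (tubb3). The pair of probe sets for Hmgb3, a chromatin protein of the high mobility group B family, was at 0.01 and -0.12, with 0 called.

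Across the 12 arrays, wcH2A-2 and wcH2A-3 were weakly related. With the mean of the arrays of the same number taken off, their values correlated at 0.36, and at -0.12 without the second well-watered Null Control array and the second stressed Pavon-TL array, those farthest from the median of wcH2A-2. All correlations here are descriptions over arrays that share the 2 replicate numbers and the 6 groups.

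With the other histones, wcH2A-2 correlated at 0.14 to 0.88 for wcH2A-9 (median 0.71), at 0.39 to 0.86 for wcH2B-8 (median 0.74) and at 0.77 and 0.79 for wcH2B-6. Without those farthest arrays the medians for wcH2A-9 and wcH2B-8 were 0.36 and 0.32, and the wcH2B-6 values 0.39 and 0.55. These arrays were chosen for their extreme wcH2A-2 values, and leaving them out narrows its range. The lower values therefore do not show how far the likeness rested on these arrays. The medians for wcH2A-3 were 0.66 with wcH2A-9 and 0.66 with wcH2B-8, and 0.54 and 0.55 without its own farthest arrays, the second well-watered ones of Null Control and Pavon-TL. Its closest histone probe set, Ta.7378.18.S1_x_at of wcH2B-8, stood at 0.91 with and without them.

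**Figure D5:**
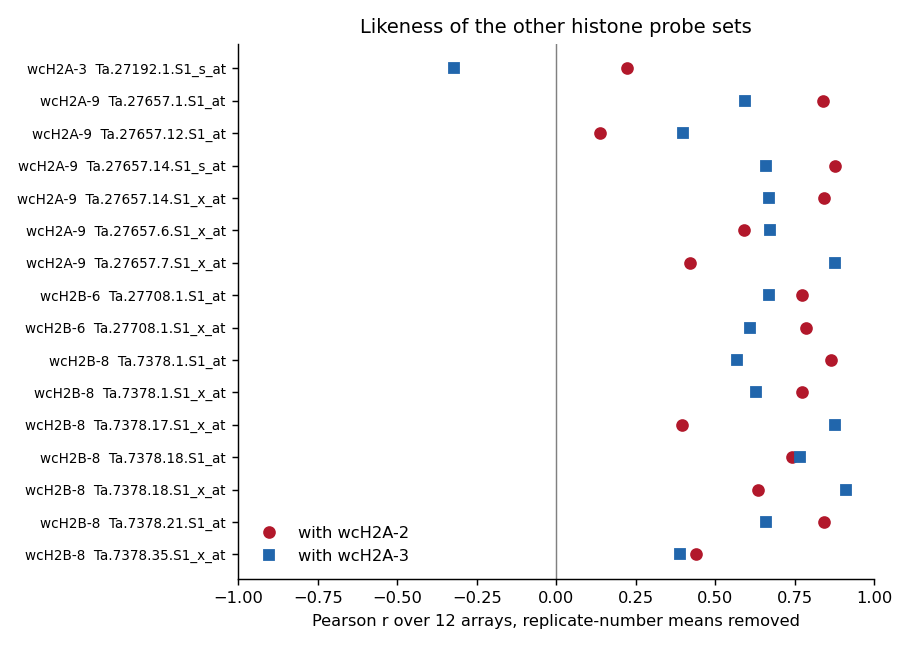
Pearson correlation over the 12 arrays of wcH2A-2 and of wcH2A-3 with each of the other histone probe sets, after the mean of the arrays with the same replicate number was taken off. The values for wcH2A-2 run from 0.14 to 0.88 over the wcH2A-9 probe sets.

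Among 101 other named genes, each measured by its probe set with the highest mean level, the pattern of wcH2A-2 was most like those of Gli-Z5, named for the gliadin storage proteins of the grain (r = 0.83), the beta-tubulin tubb3 (0.81), P38 (0.81), which is also listed as eIF-2-beta, a subunit of a translation initiation factor, wcH2B-6 (0.79) and wcH2B-8 (0.77). Without the farthest arrays these were 0.72, 0.86, 0.69, 0.55 and 0.55. It was least like WZS3, a serpin (-0.88), TCTP, the translationally controlled tumour protein (-0.81), and PIMT, which repairs damaged aspartyl residues of proteins (-0.74). For wcH2A-3 the closest were ll905, a gene also listed under gliadin names (0.82), the beta-tubulins tubb2 (0.69) and Tubb5 (0.67), wcH2A-9 (0.67) and wcH2B-8 (0.63), and the least like were the invertase IVR1 (-0.67), the glutathione transferase GSTZ1 (-0.60) and the pathogenesis-related protein PR5 (-0.56). Without its own farthest arrays the 5 closest to wcH2A-3, in the order ll905, tubb2, Tubb5, wcH2A-9 and wcH2B-8, were at 0.86, 0.52, 0.60, 0.54 and 0.38. The order holds for the probe set taken per gene: other probe sets of the histones were closer, with wcH2A-9 and wcH2B-8 reaching 0.88 and 0.86 for wcH2A-2, and 0.88 and 0.91 for wcH2A-3. Over the whole array, 478 to 1074 probe sets were at least as close to wcH2A-2 as its 5 genes, and 96 to 1943 as close to wcH2A-3. On the values as deposited, where the step between the replicate numbers is kept, wcH2A-2 correlated with wcH2B-6 at 0.10 and with tubb3 at 0.42, and wcH2A-3 with tubb2 at 0.73 and with wcH2A-9 at 0.71.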

How the data were processed

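The deposited values are log2 RMA values that the authors made from 1 Affymetrix wheat array per sample, per the labels and the submitters' processing notes; the RMA version is not given in the sources used here. Total RNA was isolated with Trizol and biotin-labelled by in vitro transcription. Of 61290 probe sets, the 111 Affymetrix controls were left out of the tests. Values ran from 2.32 to 14.8, dim probe sets were kept, and the number of arrays limits the precision. Genes were named from the 2007 platform annotation, which gave 1 symbol for 1273 probe sets, several for 0 and none for 59906. Of its 771 genes, 770 matched the RefSeq gene table, which served for names and neighbours only.

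Group means were fitted with limma 3.58.1 in R 4.3.3 on all 12 arrays, with empirical Bayes moderation and Benjamini-Hochberg adjustment over 61179 probe sets; calls were made at an adjusted p below 0.05, two-sided. The fit was tested on simulated data with noise drawn independently for each array. That simulation held no step shared by arrays of the same replicate number, so it does not show how the fit handles one. The groups share the replicate numbers 1 and 2. Deviations from the group means correlated at 0.606 to 0.795 in all 15 pairs of groups. The first principal component (54.4% of the variance) separated the numbers, so by these data the numbers pair the samples. What a number stands for is not in the labels. The SEs and intervals printed are from the fit without the block unless stated, and so include the step between the numbers. The blocked value is given where it moves a call or a count by more than 1.5 times.

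The genes described, the lists (histones, replication and cell cycle, chromatin proteins, tubulins and actin, root, leaf and grain genes) and the tests were chosen with earlier results of these data known. Lists were matched on gene symbols and synonyms. Named are all annotated histones, up to 4 genes of each other list by level, and for each H2A gene the 5 most and 3 least like genes by Pearson correlation. Alternatives were the block, a dim filter, median centring, a trended prior, each array left out in turn and, added after seeing the data, both arrays with an outlying wcH2A-2 value left out.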

Additional observations from a re-analysis of the deposited data

Results flagged for a closer look

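Of 90 groups of 4 or 6 arrays checked over the 18 histone probe sets, 5 held an array farther from the rest than the critical value of Dixon's test allows, and chance gives about 1 in 20. For wcH2A-2 these were the second well-watered Null Control array among the 6 well-watered arrays, at 10.03 with a gap of 0.835 of the range, and the second stressed Pavon76 array among the 6 stressed arrays, at 9.54 with a gap of 0.751. The wcH2A-9 probe set Ta.27657.14.S1_s_at was highest on the same Null Control array, at 12.75, with a gap of 0.834. The wcH2B-8 probe sets Ta.7378.18.S1_at and Ta.7378.18.S1_x_at were lowest in Pavon76 on the second well-watered array, at 11.20 and 11.44, with gaps of 0.894 and 0.966. No wcH2A-3 value stood apart in this way.

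In 8 of 54 pairs of genotypes over the histone probe sets, every same-number pair of one genotype was higher under stress and every such pair of the other lower. This is 14.8%, near the 12.0% found over all probe sets, and is no result about the histones. Neither wcH2A-2 nor the wcH2A-3 probe set described was among them. All 8 set Pavon76, where the value was higher, against another genotype and so share the Pavon76 arrays. The stress difference in Pavon76 minus that in Pavon-TL was 0.20 and 0.32 for the wcH2B-6 probe sets Ta.27708.1.S1_at and Ta.27708.1.S1_x_at, and 0.33, 0.32 and 0.37 for the wcH2B-8 probe sets Ta.7378.1.S1_x_at, Ta.7378.21.S1_at and Ta.7378.35.S1_x_at. Pavon76 minus Null Control was 0.45, 0.56 and 0.51 for the wcH2B-8 probe sets Ta.7378.1.S1_x_at, Ta.7378.18.S1_at and Ta.7378.21.S1_at. Tested as interactions in limma, all 8 had an adjusted p of 1.00.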

How the results depend on the processing

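The 8 genotype tests of wcH2A-2 and wcH2A-3 stayed uncalled in limma under every alternative run, with adjusted p from 0.582 upward, and the dim filter, median centring and trended prior changed no call of theirs. With each array left out in turn, the wcH2A-2 stress difference in Null Control ran from -0.81 to -0.25, and from -0.75 to -0.31 with the replicate block as well; with both outlying arrays out it was -0.25, and -0.28 with the block. The wcH2A-3 difference in Pavon-TL ran from -0.12 to 0.21 with or without the block, and that in Null Control from -0.21 to 0.12 with the block, and was 0.14 with the block and both arrays out. The histone list held 1 called probe set in each Pavon-TL comparison, 0 to 1 with an array left out (1 to 2 against Null Control with the block), 0 in all 3 with both arrays out, and 2 against Null Control with the block and both out. Over the whole table the block raised the calls from 122 to 388 for Pavon-TL against the controls. Against Pavon76 they rose from 103 to 305, and against Null Control from 93 to 352. For Null Control against Pavon76 they rose from 3 to 9, and for average stress from 0 to 5. With all arrays in, every group holds 1 array of each number, so by design the block cannot move a stress difference. With 2 arrays a group, stress differences within a genotype rest on 4 arrays.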
